A study of Mus musculus with 4 samples.

Results

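This account covers 10 genes of the Wnt and R-spondin pathway, of 30828 genes in the deposited matrices, in testis cells of mice at postnatal day (P) 8. The genes are the ligands *Wnt4*, *Wnt5a* and *Wnt6*, the co-ligand *Rspo1*, the receptors *Lgr4* and *Lgr5*, the feedback target *Axin2*, the nuclear factor *Lef1*, the secreted binder *Sfrp1* and the effector *Ctnnb1*. They were taken by symbol and had been selected on their measured levels across germ and somatic cells and between the genotypes. Their levels and ratios are therefore given as descriptions, with no test.

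Wnt proteins are secreted, lipid-bearing ligands that bind Frizzled receptors with LRP co-receptors and thereby keep β-catenin from being degraded. β-catenin then enters the nucleus and acts with TCF and LEF factors on target genes, several of which encode feedback inhibitors. R-spondins bind LGR receptors and raise the number of Frizzled receptors on the cell surface by removing the ligases ZNRF3 and RNF43. In the gonad, *Rspo1* and *Wnt4* are known for driving ovarian development, and Wnt signals act on spermatogonial stem cells (SSCs) and progenitors in the testis.

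The control mice carried *Cnot3*flox/flox without Cre, although their genotype is labelled wild-type. The *Cnot3*-cKO mice were *Cnot3*flox/flox; *Ddx4*-creER, in which a Cre recombinase made from the germ cell gene *Ddx4* acts only after 4-hydroxytamoxifen (4OHT). Both groups were labelled as injected with 4OHT from P1, with last injections at P1 and P2 for the 2 control samples and at P3 and P4 for the 2 *Cnot3*-cKO samples, so length of treatment as labelled cannot be told apart from genotype. The methods describe 1 schedule for all neonatal mice. Cells were sorted by FACS for the surface proteins CD9 and THY1, and RNA molecules were counted as unique molecular identifiers (UMIs) in 10x Genomics 3′ libraries.

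Each genotype had 1 matrix in which its 2 samples were merged, with no map from barcodes to samples. All comparisons are thus between 1 control and 1 *Cnot3*-cKO library and have no replicate check, and intervals cover counting error only. The matrices held 181550221 and 168770743 UMIs, and 8341 and 9336 barcodes were called as cells, of which 18 barcode sequences occurred in both libraries. The filters of the methods (at most 10% mitochondrial UMIs, and UMIs and genes within 2 SD of the mean) left 5615 and 6034 cells, called the stated set. A wider set (at most 20% mitochondrial UMIs, no bounds) held 8259 and 9268 cells. Classes were named from marker genes, and the stated set held, in control and then in *Cnot3*-cKO, 241 and 73 germ-like cells, 1400 and 1723 Sertoli-like cells, 1281 and 1513 myoid-like cells, 2101 and 2110 stroma-like cells, and 33 and 37 endothelial-like cells. Each class carried its own markers at high levels, such as a sum of 2188 and 2176 counts per 1000000 UMIs (CPM) for the germ cell list in germ cells. In myoid cells the myoid list was at 3692 and 2871 CPM and the stromal list at 3829 and 4053 CPM, so this class carried stromal markers as well and its own list was lower in *Cnot3*-cKO. None of the 10 genes entered the clustering. The wider set had 1333 and 559 germ cells. Their median was 42268 and 46199 UMIs, so many lay above the upper bounds of 41983 and 38066 UMIs. The mitochondrial limit left 6038 and 6412 cells of all classes, and the bounds then left 5615 and 6034. The bounds alone thus removed fewer cells than the germ cells gained. Part of the germ cells of the wider set therefore had over 10% mitochondrial UMIs. The gap between germ cells gained and cells removed by the bounds was wider in control, so this part may differ between the libraries. Its size in each library is not given, and its share in the germ cell ratios of the wider set was not tested.

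The targeted gene followed its label. *Cnot3*, a subunit of the CCR4-NOT deadenylase, was at 69.4 CPM in control and 38.0 CPM in *Cnot3*-cKO germ cells (492 and 58 UMIs, log2 ratio -0.87, 95% interval -1.29 to -0.48). In Sertoli cells, where *Ddx4* is not used, it was at 64.5 and 67.3 CPM (log2 ratio 0.06, -0.04 to 0.17).

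The main source of *Wnt6* differed from that of the other 2 Wnt ligands. *Wnt6* (chromosome 1, 74771892-74785322, GRCm38) was a Sertoli cell transcript, *Wnt4* (chromosome 4, 137277489-137299726) was made by myoid and stromal cells and was near absent from Sertoli cells, and *Wnt5a* (chromosome 14, 28504750-28527448) was highest in myoid and stromal cells with a lower level in Sertoli cells. *Rspo1* (chromosome 4, 124986430-125009099) was highest in stroma among the germ, Sertoli, myoid, stromal and endothelial classes of the stated set, with higher levels in some smaller clusters and in control progenitors of the wider set. Of the 10 genes, *Lgr5* lies on the minus strand and the others on the plus strand. The orders below compare 1 gene across classes, since UMIs of different genes were not compared with each other.

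*Wnt6*, a ligand known in epithelia, was at 578 CPM (567 to 588) in control and 527 CPM (518 to 537) in *Cnot3*-cKO Sertoli cells, from 12154 and 13014 UMIs. Stroma followed at 142 and 148 CPM, and myoid cells were at 14.4 and 14.2 CPM. After each cell had been thinned to 10000 UMIs, 97.6% of control and 96.5% of *Cnot3*-cKO Sertoli cells held a *Wnt6* UMI, against 12% and 13.2% of myoid cells, with median depths of 13827 and 13292 UMIs in Sertoli and 14326 and 13398 UMIs in myoid cells. Thinning left out 84 and 154 shallower Sertoli cells and 50 and 122 myoid cells, and before it the Sertoli cells with a UMI were 1378 of 1400 and 1676 of 1723. Nearly every Sertoli cell thus held the transcript. Within stroma the cluster led by *Clec3b* was at 184 and 194 CPM and the cluster led by *Foxl2* at 86.2 and 91.3 CPM, with intervals of the 2 clusters that did not overlap in either library.

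*Wnt4*, best known for female gonad and kidney development, was at 56.3 and 56.2 CPM in myoid cells and 54.7 and 49.6 CPM in stroma. Its level in Sertoli cells was 0.903 and 0.811 CPM. Myoid and stromal levels overlapped in control and not in *Cnot3*-cKO. In stroma the *Foxl2* cluster (72.8 and 60.9 CPM) lay above the *Clec3b* cluster (40.9 and 40.3 CPM), which is the reverse of their order for *Wnt6* and *Rspo1*. Among myoid cells, the small cycling cluster led by *Slfn9* (112 and 78 cells) was at 55.1 and 34.8 CPM, from 114 and 48 UMIs.

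*Wnt5a*, a ligand that mostly signals without β-catenin through ROR and RYK receptors, was at 177 and 194 CPM in myoid cells, 150 and 138 CPM in stroma and 30.9 and 38.3 CPM in Sertoli cells. These 3 classes kept that order in both libraries with no overlap of their intervals. Thinned to equal depth, 78.2% and 81.3% of myoid cells and 25.2% and 30.1% of Sertoli cells held a UMI, against 5.22% and 9.23% of germ cells. Before thinning 473 of 1400 and 661 of 1723 Sertoli cells held one. Among Sertoli cells the cluster led by *Cidea* was highest at 45.7 and 58.3 CPM, and the other 3 clusters ran from 24.5 to 27.4 CPM in control and from 31.6 to 33.6 CPM in *Cnot3*-cKO.

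*Rspo1*, whose product potentiates Wnt signals through LGR receptors, was at 12.5 CPM in stroma of both libraries (371 and 352 UMIs). It was at 3.53 and 2.62 CPM in germ cells, 1.06 and 1.54 CPM in myoid cells and 0.808 and 0.932 CPM in Sertoli cells of the stated set. In both libraries the stromal interval lay clear of that of germ cells, the next class. The stromal level came mostly from the *Clec3b* cluster (19.0 and 20.1 CPM) and less from the *Foxl2* cluster (4.00 and 3.25 CPM). An unnamed cluster of 10 control and 11 *Cnot3*-cKO cells led by *Rmst* and *Pax8* held 259 and 123 CPM, from 43 and 21 UMIs.

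**Figure D1:**
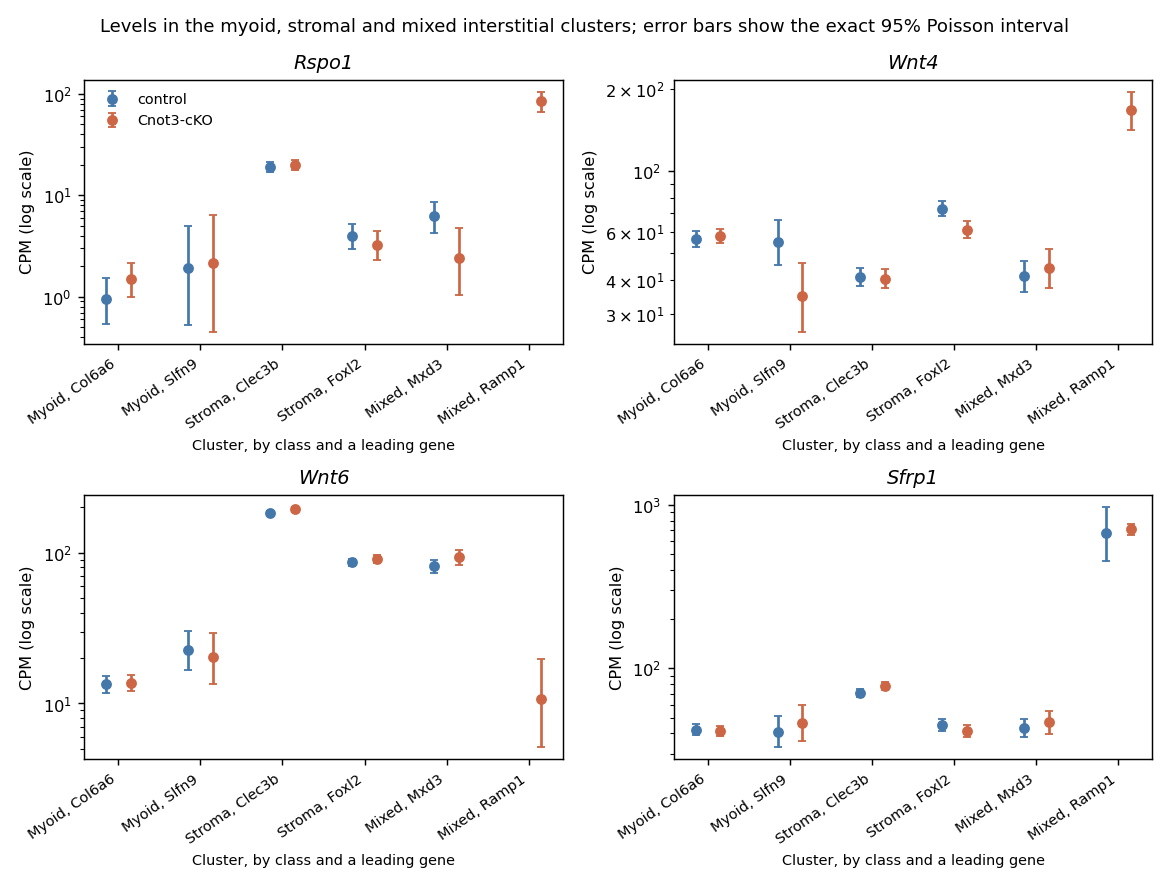
Levels of *Rspo1*, *Wnt4*, *Wnt6* and *Sfrp1* (CPM, log scale) in 6 interstitial clusters named by class and a leading gene, with control in blue and *Cnot3*-cKO in orange, error bars showing the exact 95% Poisson interval and levels of 0 left out. *Rspo1* and *Wnt6* were higher in the *Clec3b* than in the *Foxl2* stroma, *Wnt4* was higher in the *Foxl2* stroma, and the *Ramp1* cluster stood apart for *Sfrp1* at 676 and 710 CPM.

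The R-spondin receptors differed in breadth. *Lgr4* (chromosome 2, 109917647-110014257) was at 30.3 and 27.3 CPM in stroma, 29.3 and 28.4 CPM in Sertoli cells and 21.4 and 19.5 CPM in myoid cells, and at 9.74 and 7.85 CPM in germ cells. Its stromal and Sertoli levels overlapped in both libraries. *Lgr5* (chromosome 10, 115450311-115587780), a stem cell receptor in intestine and skin, was rare and seen mainly in Sertoli cells at 4.37 and 2.72 CPM (92 and 67 UMIs), while myoid and stromal cells held at most 6 UMIs of it in a library. A mixed set with both stromal and myoid markers, described further on, was at 0.361 and 2.11 CPM (2 and 9 UMIs). Its *Cnot3*-cKO interval (0.965 to 4.01) overlapped that of Sertoli cells (2.10 to 3.45). In thinned cells *Lgr5* was found in 3.8% and 2.42% of Sertoli cells, above the 0.162% and 0.288% of myoid cells, and before thinning in 86 of 1400 and 56 of 1723 Sertoli cells.

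The readouts of the pathway were also split by class. *Axin2* (chromosome 11, 108920349-108950783), a scaffold of the β-catenin destruction complex and a common feedback target, was found in every class, at 17.9 and 13.9 CPM in Sertoli cells, 13.9 and 12.7 CPM in myoid cells, 10.3 and 10.9 CPM in stroma and 8.89 and 10.5 CPM in germ cells. Endothelial cells were at 23.2 and 8.82 CPM from 11 and 4 UMIs, and their intervals (11.6 to 41.4 and 2.4 to 22.6) overlapped. *Lef1* (chromosome 3, 131110471-131224356), the nuclear partner of β-catenin, was at 48.4 CPM (30.7 to 72.7) and 46.3 CPM (28.7 to 70.8) in endothelial cells, where 14 of 33 and 17 of 37 cells held a UMI. Germ cells followed at 7.05 and 5.89 CPM. Macrophage-like cells were at 2.19 and 5.63 CPM (2 and 6 UMIs), with intervals that overlapped those of germ cells. It was nearly lacking in the larger somatic classes, with 2 and 1 UMIs in Sertoli, 3 and 1 in myoid and 8 and 2 in stromal cells. In thinned cells 29.6% and 45.0% of endothelial cells held *Lef1*, against 0.0760% of control Sertoli cells and 0 of 1569 *Cnot3*-cKO Sertoli cells, which allows a share of cells with a UMI of up to 0.191% by 3 counts and 0.235% by the Clopper-Pearson interval. Before thinning 2 of 1400 and 1 of 1723 Sertoli cells held one. Thinning left out 6 and 17 endothelial cells.

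*Sfrp1* (chromosome 8, 23411502-23449632), a secreted Wnt binder, was at 59.7 and 61.8 CPM in stroma, 42.1 and 41.8 CPM in myoid cells, 19.3 and 13.7 CPM in germ cells and 2.52 and 2.47 CPM in Sertoli cells. That order held in both libraries with no overlap between stroma, myoid and germ cells. *Ctnnb1* (chromosome 9, 120929216-120960507), which encodes β-catenin and serves cell junctions as well as Wnt signals, was at 549 and 717 CPM in endothelial cells, 285 and 322 CPM in Sertoli cells, 261 and 247 CPM in myoid cells, 187 and 178 CPM in stroma and 148 and 147 CPM in germ cells. The order of these 5 classes was the same in both libraries.

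The levels of the genes across clusters also paired some of them. Only clusters with at least 50 cells in a library gave a profile. This left out the endothelial cluster (33 and 37 cells), where *Lef1* was highest, and small unnamed clusters. Over the 25 profiles of 13 clusters by library, with log2(CPM + 1) values, Pearson's r was 0.91 for *Sfrp1* and *Wnt4* and 0.82 for *Lgr4* and *Axin2*. It was 0.81 for *Sfrp1* and *Rspo1*, 0.79 for *Wnt5a* and *Wnt4*, 0.63 for *Lgr5* and *Wnt6* and -0.83 for *Lef1* and *Lgr4*. Profiles of 1 cluster in both libraries are near repeats, so these values only describe the clusters. By the same measure, the genes most like each member were RP24-78M9.4, *Spon2* and *Ahnak2* for *Rspo1* (r 0.93, 0.92 and 0.91), and *Gucy1a3*, *Col6a3* and *Pdlim3* for *Wnt4* (all 0.99). They were *Parva*, *Bmp1* and *Serpinh1* for *Wnt5a* (0.99, 0.98 and 0.98), *Masp1*, *Epdr1* and *Efhd1* for *Wnt6* (all 0.93), and *Tead1*, *Zc2hc1a* and *Nfib* for *Lgr4* (0.96, 0.94 and 0.94). For *Lgr5* they were *Efnb2*, *Plce1* and *Spsb4* (0.89, 0.88 and 0.88), and for *Axin2* they were *Sdr39u1*, *Smtnl2* and *Zfp827* (0.89, 0.88 and 0.87). *Lef1* was most like *Nat8l*, *Xlr4c* and *Hhex* (0.97, 0.96 and 0.96), *Sfrp1* like *Pde3a*, *Mn1* and *Ebf4* (0.97, 0.97 and 0.96), and *Ctnnb1* like *Ptpn11*, *Mmp11* and *Rbmxl1* (all 0.93).

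The next question was where the genes differed between genotypes. A gene was counted as called when its levels differed by at least 1.5-fold and it had at least 100 UMIs over both libraries. Sertoli cells had 7 members with enough UMIs, and 1 was called, *Lgr5*, which was lower in *Cnot3*-cKO, where 1.79% of 11068 genes were called in either direction. Myoid cells had 0 of 7 members called, against 2.09% of all genes, and stroma had 0 of 8, against 1.51%. Endothelial cells had 1 member with enough UMIs and none called, against 8.27% of genes. In germ cells of the stated set 1 of 3 was called, *Wnt6*, against 10.4% of genes. With so few members these counts give no share to set against the background. The median log2 ratio of the members with enough UMIs was -0.05 in Sertoli, -0.02 in myoid, -0.03 in stromal and -0.01 in germ cells, beside 0.04, -0.02, -0.02 and 0.03 over all genes tested.

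**Figure D2:**
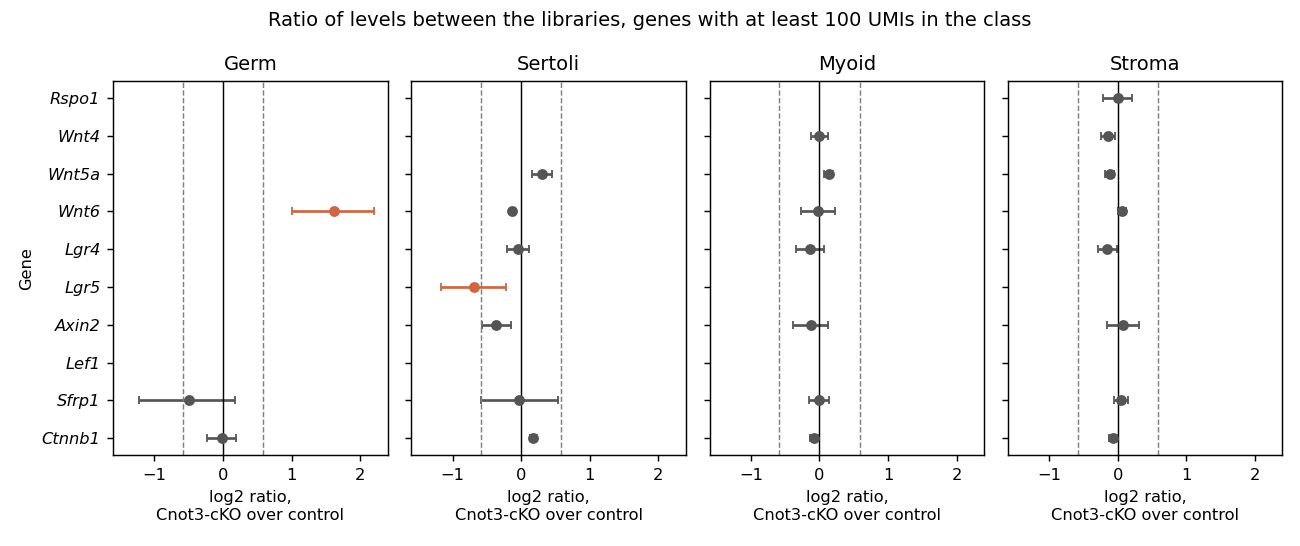
Log2 ratio of *Cnot3*-cKO over control (x axis) for members with at least 100 UMIs in germ, Sertoli, myoid and stromal cells of the stated set, with error bars showing the exact conditional 95% interval, dashed lines at 1.5-fold and called genes in orange. Myoid and stromal ratios lay between -0.15 and 0.14, and in Sertoli cells *Lgr5* and *Axin2* lay below 0 and *Wnt5a* above 0.

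In Sertoli cells, which *Ddx4*-creER does not target, the ligands and readouts differed in small steps. *Wnt5a* had a log2 ratio of 0.31 (0.16 to 0.45) over all Sertoli cells and of 0.29 to 0.36 in the 4 clusters, with intervals above 0 in the *Hsd17b1* and *Cidea* clusters and across 0 in the other 2. *Wnt6* had a log2 ratio of -0.13 (-0.17 to -0.10) and was lower in each of the 4 clusters. *Ctnnb1* was at 0.18 (0.13 to 0.22). The R-spondin receptor *Lgr5* had a ratio of -0.69 (-1.16 to -0.22), from 4.86 and 2.30 CPM in the *Hsd17b1* cluster and 2.48 and 3.18 CPM in the *Cidea* cluster, and *Axin2* was at -0.36 (-0.58 to -0.15). In the wider set *Lgr5* was at -0.65 (-0.96 to -0.34) and *Axin2* at -0.52 (-0.66 to -0.38). *Axin2* was at 19.9 and 13.8 CPM in the *Hsd17b1* cluster (log2 ratio -0.53, -0.82 to -0.24) and at 15.3 and 17.1 CPM in the cycling cluster led by *Ube2c* (0.15, -0.35 to 0.66), and the difference between these clusters was not tested. The summed Sertoli markers were at like levels in both libraries, at 4943 and 4991 CPM, a sum that does not show single markers. The summed germ cell markers in Sertoli cells were at 21.9 and 15.9 CPM, the myoid list at 19.7 and 51.4 CPM and the erythroid list at 0.713 and 317 CPM, and their part in these ratios was not tested.

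The widest difference of the pathway in Sertoli cells lay outside the 10 genes. *Sp5*, a zinc finger factor that is a direct target of β-catenin and was one of 78 further genes of a Wnt list, was at 34.3 CPM in control and 8.79 CPM in *Cnot3*-cKO Sertoli cells (722 and 217 UMIs, log2 ratio -1.96, -2.19 to -1.74). It was lower in all 4 Sertoli clusters, from 35.5 to 8.50 CPM in the *Hsd17b1* cluster, from 23.4 to 7.74 CPM in the *Cidea* cluster, from 48.6 to 11.7 CPM in the *Ube2c* cluster and from 19.8 to 7.29 CPM in the *Hist1h2bc* cluster. A UMI of *Sp5* was found in 409 of 1400 and 144 of 1723 Sertoli cells, and in 22.5% (20.3 to 24.8) and 5.80% (4.70 to 7.07) of them after thinning, against 0.433% of control and 0 of 1688 *Cnot3*-cKO stromal cells. Fewer cells with *Sp5* accompanied the lower level. The log2 ratio was -2.09 in the wider set. Of 11068 genes tested in Sertoli cells, *Sp5* ranked 2 from the lowest ratio, *Lgr5* ranked 55 and *Axin2* ranked 293.

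Of the listed Wnt target genes *Sp5*, *Ccnd1* and *Myc*, only *Sp5* had enough UMIs in Sertoli cells. *Ccnd1* had 30 and 40 UMIs and *Myc* 43 and 19. With the members *Axin2* and *Lgr5* and the inhibitors *Nkd1* and *Znrf3* added, the set held 7 genes. Of these, 4 had enough UMIs, and *Sp5* and *Lgr5* were called, where 1.79% of all genes were called in either direction. *Axin2* was under the 1.5-fold limit, and *Lgr5* and *Axin2* had been selected on these values. *Znrf3*, which encodes a ligase that removes Frizzled receptors, was at 21.6 and 23.8 CPM (log2 ratio 0.14). The genes ranked 1 and 3, *H2-Q7* and *H2-D1*, named here after their values were seen, encode MHC class I proteins and had log2 ratios of -2.54 and -1.96. MHC class I alleles differ between mouse strains, and a difference in strain background between the libraries was not tested.

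**Figure D3:**
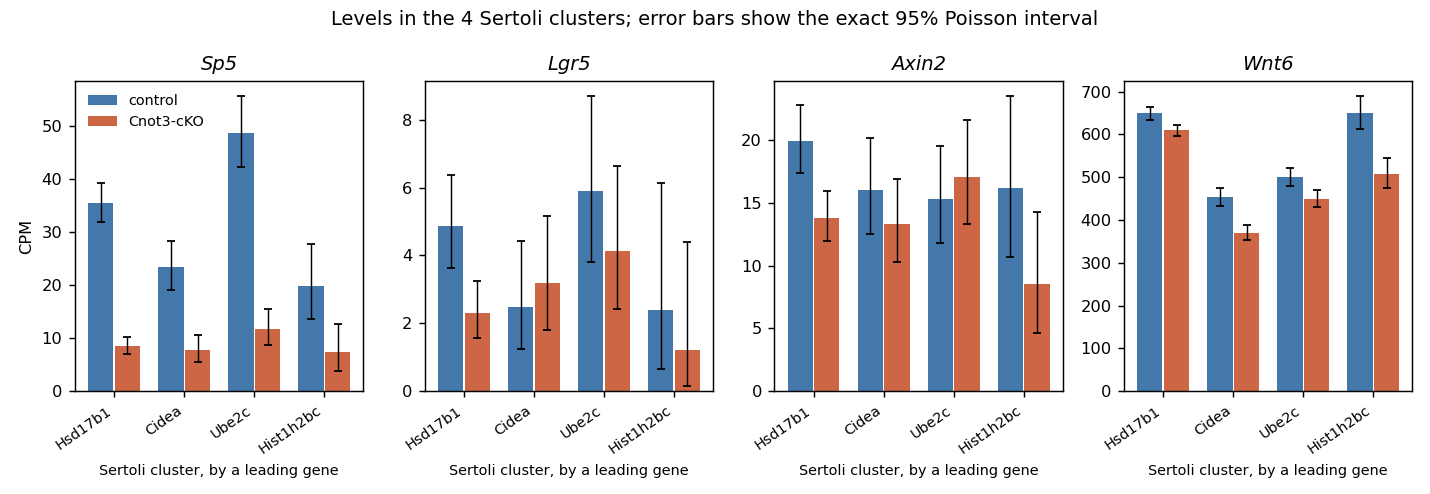
Levels of *Sp5*, *Lgr5*, *Axin2* and *Wnt6* (CPM) in the 4 Sertoli clusters, with control and *Cnot3*-cKO side by side and error bars showing the exact 95% Poisson interval. *Sp5* and *Wnt6* were lower in *Cnot3*-cKO in all 4 clusters, with intervals of *Sp5* that did not overlap in any of the 4. *Lgr5* and *Axin2* were lower in 3 of 4, but their ratio intervals lay below 0 only in the *Hsd17b1* cluster and crossed 0 in the others.

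The promoters of *Sp5*, *Axin2* and *Rspo1* are shown because the first 2 are β-catenin targets that differed in Sertoli cells and *Rspo1* is the member with the largest ratio in germ cells of the wider set (RefSeq, GRCm38.p6, plus strand, 250 bases before to 50 after the start). Capitals mark the TCF/LEF motif CTTTGAT and the GC box GGGCGG, searched on both strands.
*Sp5*, chr2:70474673-70474972: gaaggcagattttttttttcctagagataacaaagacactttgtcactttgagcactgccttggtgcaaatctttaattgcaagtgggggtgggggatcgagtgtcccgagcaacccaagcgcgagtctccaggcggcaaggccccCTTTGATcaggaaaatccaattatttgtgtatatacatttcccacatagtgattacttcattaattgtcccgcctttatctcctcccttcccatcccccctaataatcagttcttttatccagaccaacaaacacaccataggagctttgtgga
*Axin2*, chr11:108920099-108920398: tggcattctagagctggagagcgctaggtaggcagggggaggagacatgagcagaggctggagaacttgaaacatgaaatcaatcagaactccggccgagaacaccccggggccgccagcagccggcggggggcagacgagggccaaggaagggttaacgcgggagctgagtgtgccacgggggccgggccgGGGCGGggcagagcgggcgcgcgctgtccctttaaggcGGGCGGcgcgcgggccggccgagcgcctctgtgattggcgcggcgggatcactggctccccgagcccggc
*Rspo1*, chr4:124986180-124986479: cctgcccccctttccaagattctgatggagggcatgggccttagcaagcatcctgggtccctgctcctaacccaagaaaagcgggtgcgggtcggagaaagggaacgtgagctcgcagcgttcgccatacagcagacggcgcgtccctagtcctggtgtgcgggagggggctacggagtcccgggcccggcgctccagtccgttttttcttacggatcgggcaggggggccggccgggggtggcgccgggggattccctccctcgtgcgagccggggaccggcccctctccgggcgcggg
The *Sp5* window held 1 CTTTGAT, at position -104 from the start, a motif that 3.73% of 32851 promoters of this length held. Promoters were listed for 7 of the 10 members and not for *Lgr5*, *Sfrp1* and *Wnt5a*, and none of their 11 windows held CTTTGAT, which says nothing of sites elsewhere. GGGCGG was in 8 of these 11 windows, of the 5 members *Axin2*, *Ctnnb1*, *Lef1*, *Wnt4* and *Wnt6*, and in 35.7% of all promoters. *Lef1* and *Ctnnb1* had several windows, some of them overlapping, so the count of windows is not set against that share. The *Axin2* and *Rspo1* windows were rich in G and C (70.0% and 69.0%, with 31 and 29 CpG), and the *Sp5* window was not (45.0%, with 6 CpG), beside medians of 52.7% and 7 CpG over all promoters.

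In myoid cells and stroma the members were nearly level. *Wnt5a* was at log2 ratios of 0.14 (0.07 to 0.20) in myoid cells and -0.12 (-0.18 to -0.06) in stroma, and *Wnt4* at -0.14 (-0.25 to -0.04) in stroma. *Rspo1* was at -0.00 (-0.21 to 0.21) and *Sfrp1* at 0.05 (-0.05 to 0.14) in stroma. All of these lay under the 1.5-fold limit.

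A set of 270 control and 258 *Cnot3*-cKO cells with both stromal and myoid markers showed larger ratios for *Sfrp1* (48.2 and 193 CPM, log2 2.0), *Rspo1* (6.14 and 20.4 CPM, log2 1.73) and *Wnt4* (40.8 and 71.3 CPM, log2 0.80). These rested on a cluster led by *Ramp1* with 2 control and 86 *Cnot3*-cKO cells, which may be particular to that library. It held *Sfrp1* at 710 CPM, *Wnt4* at 167 CPM and *Rspo1* at 84.2 CPM in *Cnot3*-cKO. In the other cluster of the set, led by *Mxd3* and other cycling genes, *Sfrp1* was at 43.3 and 46.9 CPM, *Wnt4* at 41.2 and 44.2 CPM and *Rspo1* at 6.19 and 2.41 CPM.

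In endothelial cells *Ctnnb1* was at a log2 ratio of 0.38 (0.14 to 0.62). *Wnt6* was at 63.2 and 4.41 CPM there, but 25 of its 30 control UMIs came from 3 cells. The summed Sertoli markers in these cells were at 876 and 77.2 CPM and the stromal markers at 25.3 and 483 CPM, and their part in these levels was not tested.

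In germ cells the stated set held few UMIs of most members. *Wnt6* was at 8.75 and 26.8 CPM (62 and 41 UMIs, log2 ratio 1.62, 1.01 to 2.21), with 39 of 241 and 13 of 73 cells holding a UMI. Of the 41 *Cnot3*-cKO UMIs, 22 lay in 3 cells. The Sertoli markers, of the class richest in *Wnt6*, were summed to 61.4 and 163 CPM in these germ cells. The level that free RNA alone would give, estimated from empty droplets, was 8.32 and 8.11 CPM, and the part of Sertoli RNA in the ratio was not tested. In the wider set *Wnt6* was at 15.5 and 19.8 CPM (log2 ratio 0.35). *Ctnnb1* was level at 148 and 147 CPM.

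In the wider set 3 of 9 members with enough UMIs were called and lower in *Cnot3*-cKO, against 9.96% of 13295 genes called in either direction. *Rspo1* was at 8.19 and 2.16 CPM (464 and 56 UMIs, log2 ratio -1.92, -2.35 to -1.52), *Axin2* at 12.1 and 7.45 CPM (-0.70, -0.94 to -0.47) and *Sfrp1* at 17.9 and 11.4 CPM (-0.65, -0.85 to -0.47). *Lef1* was at 11.6 and 10.3 CPM (-0.17, -0.38 to 0.04) and *Lgr4* at 8.99 and 6.33 CPM (-0.51, -0.77 to -0.25). Without the clusters led by somatic genes 4 of 9 members were called, against 11.1% of genes. *Rspo1* (-2.15, -2.66 to -1.67), *Axin2* and *Sfrp1* were lower in *Cnot3*-cKO. *Wnt6* was higher, at 3.32 and 5.40 CPM (log2 ratio 0.70, 0.34 to 1.06). The summed Sertoli markers in these cells were at 30.3 and 50.1 CPM, and their part in the *Wnt6* ratio was not tested. The summed stromal markers, of the class richest in *Rspo1*, were at 201 and 190 CPM in germ cells of the wider set. In germ cells of the stated set the log2 ratio of *Rspo1* was -0.43 (-2.41 to 1.10, 25 and 4 UMIs). There *Axin2* was at 0.24 (-0.65 to 1.05, 63 and 16 UMIs) and *Sfrp1* at -0.49 (-1.23 to 0.18). These intervals all crossed 0, and the *Axin2* ratio had the reverse sign of that in the wider set. The part of cells with over 10% mitochondrial UMIs in the wider set's ratios was not tested.

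Germ cells of the wider set were clustered again and named by stage markers, and the genotypes differed in stage. Control held 94 SSC, 426 progenitor, 442 differentiating and 158 meiotic cells, and *Cnot3*-cKO held 296, 26, 71 and 71. The SSC set was mostly a cluster with 1 control and 281 *Cnot3*-cKO cells, so its values may be particular to that library. When genes were centred within each library before clustering, SSCs numbered 266 in control and 160 in *Cnot3*-cKO, so which library held more SSCs depended on how the stages were drawn. A further 213 and 95 cells were led by somatic genes and stayed unnamed. Control levels of each stage, unnamed cells included, were also weighted by the *Cnot3*-cKO UMIs per stage. Against control this gave log2 ratios of -1.05 for *Rspo1*, -0.35 for *Axin2*, -0.06 for *Sfrp1* and -1.06 for *Lef1*. The centred stages gave -0.43, -0.08, 0.09 and -0.23. These values depended on how the stages were drawn, and the part of stage in the ratios over all germ cells was not tested.

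*Rspo1* in control germ cells was highest in progenitors. In control it was at 15.5 CPM (13.8 to 17.5) in progenitors, 4.86 CPM in differentiating cells, 1.89 CPM in SSCs and 0.564 CPM in meiotic cells, and 136 of 426 progenitors held a UMI. The progenitor interval lay clear of the other 3. In *Cnot3*-cKO it was at 4.86 CPM in progenitors (6 UMIs in 26 cells, interval 1.78 to 10.6), 1.86 CPM in differentiating cells and 1.80 CPM in SSCs. The progenitor log2 ratio was -1.68 (-3.14 to -0.54), with summed stromal markers at 63.1 and 68.9 CPM in these cells. The stage marker *Neurog3*, a progenitor factor, was also lower in *Cnot3*-cKO progenitors, at 28.7 and 18.6 CPM. In the centred stages progenitors numbered 229 and 38 and the levels were 24.9 and 6.68 CPM (254 and 11 UMIs, log2 ratio -1.90, -2.92 to -1.03). In those centred progenitors *Neurog3* was at 43.9 and 17.6 CPM, the SSC marker *Gfra1* at 7.64 and 27.3 CPM and the differentiation marker *Kit* at 2.84 and 11.5 CPM, so the progenitors of the libraries differed in stage markers too, and the part of this in the *Rspo1* ratio was not tested.

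Among control germ cells of the named stages, thinned to equal depth, 23.9% (14.3 to 35.9) of the 67 cells with *Rspo1* also held *Neurog3*, against 7.36% (5.85 to 9.13) of the 1032 cells without it. Within control progenitors the shares were 30.6% of 49 and 16.0% of 363 cells, with intervals that overlapped. In *Cnot3*-cKO 0 of 10 cells with *Rspo1* held *Neurog3* (interval up to 30.8%), against 3.78% of the 450 without it. Control cells with and without *Rspo1* held *Lef1* in 17.9% and 8.82%, *Sfrp1* in 17.9% and 14.5% and *Axin2* in 11.9% and 9.69%. The intervals of each of these pairs overlapped.

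*Lef1* also peaked in progenitors, at 22.0 CPM in control and 21.9 CPM in *Cnot3*-cKO (388 and 27 UMIs), and was lower in differentiating (7.56 and 8.98 CPM) and meiotic cells (1.5 and 0.714 CPM). In SSCs it was at 2.96 and 12.2 CPM (11 and 169 UMIs), but the centred stages gave 10.3 and 13.0 CPM (log2 ratio 0.34, -0.08 to 0.76), so the SSC ratio depended on how the stages were drawn. In *Cnot3*-cKO progenitors the interval of *Lef1* (14.4 to 31.8 CPM) held the control level and that of *Rspo1* did not.

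*Sfrp1* was at 28.5 and 23.5 CPM in progenitors, 19.4 and 12.6 CPM in SSCs, 10.9 and 10.5 CPM in differentiating cells and 1.32 and 0.714 CPM in meiotic cells. In SSCs its log2 ratio was -0.62 (-1.02 to -0.20), and it was -1.20 (-1.56 to -0.85) with the centred stages (28.4 and 12.4 CPM). *Lgr4* ran the other way, from 2.42 and 3.18 CPM in SSCs through 5.11 and 4.05 CPM in progenitors to 10.2 and 11.2 CPM in differentiating and 11.1 and 9.99 CPM in meiotic cells. *Axin2* lay between 6.21 and 13.8 CPM in every jointly drawn stage of both libraries, and *Ctnnb1* between 135 and 157 CPM. In SSCs of the centred stages *Axin2* was at 7.91 and 4.61 CPM (log2 ratio -0.78, -1.41 to -0.17). The ligands *Wnt4* and *Wnt5a* stayed at or under 6 CPM in all 4 stages.

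**Figure D4:**
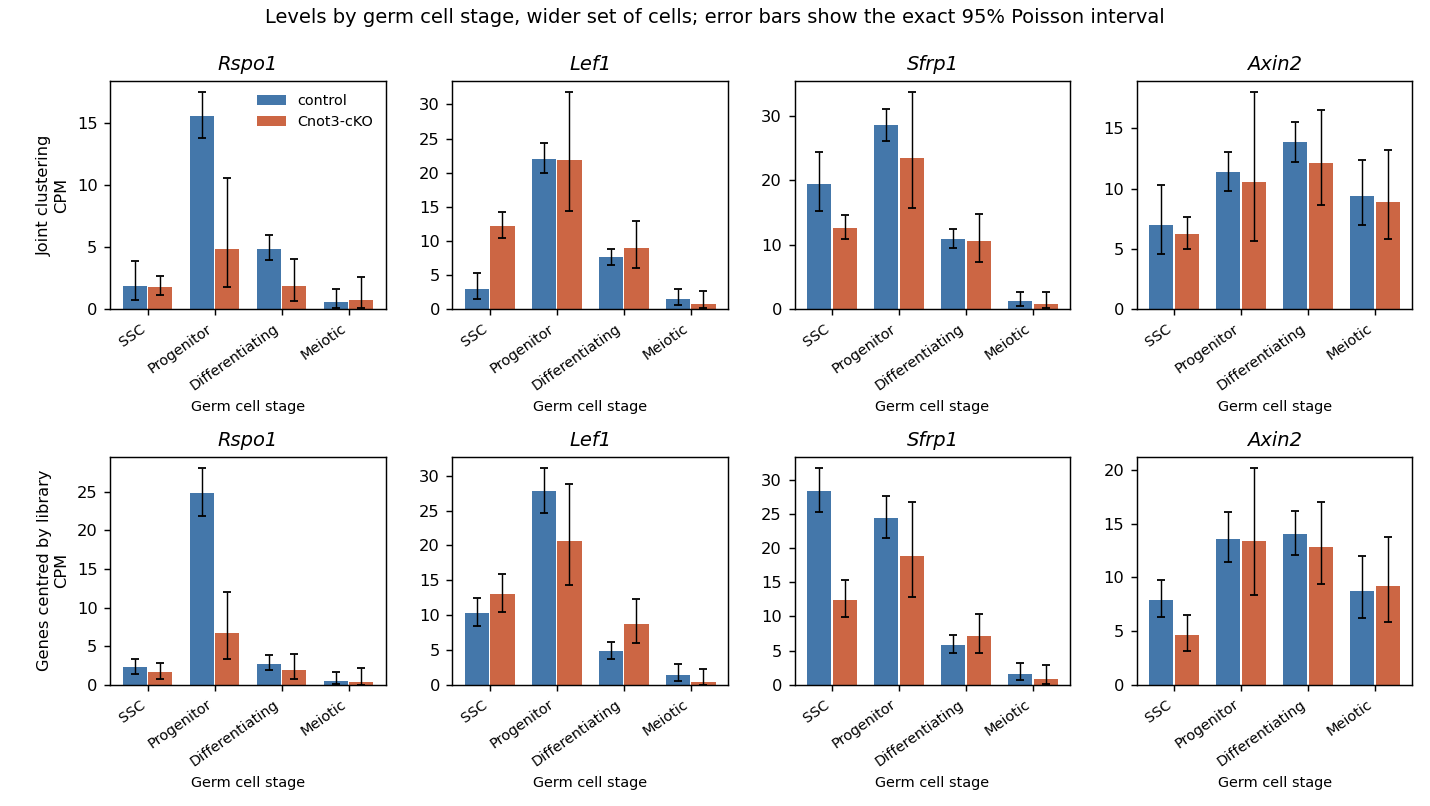
Levels of *Rspo1*, *Lef1*, *Sfrp1* and *Axin2* (CPM) by stage in the wider set, for stages drawn jointly (top) and after centring within libraries (bottom), with control and *Cnot3*-cKO side by side and error bars showing the exact 95% Poisson interval. *Rspo1* and *Lef1* peaked in control progenitors, and *Rspo1* was lower there in *Cnot3*-cKO under both ways of drawing the stages.

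The other 78 genes of the Wnt list place these members in the pathway, and 35 of them reached 20 CPM in a class of both libraries. *Wls*, the carrier of Wnt proteins to the cell surface, was at 85.3 and 80.7 CPM in myoid cells, 75.9 and 70.6 CPM in stroma and 64.8 and 65.0 CPM in Sertoli cells and at 4.51 and 5.89 CPM in germ cells. *Wnt5b* was at 62.1 and 63.9 CPM in stroma and also passed 20 CPM in myoid cells, and *Rspo4* was at 21.2 and 20.3 CPM in germ cells.

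The receptors were split by class. *Fzd2* was at 125 and 124 CPM in myoid cells and 116 and 111 CPM in stroma, and *Fzd4* at 94.7 and 88.2 CPM in endothelial cells. *Fzd3* was at 70.2 and 78.5 CPM in Sertoli cells and also passed 20 CPM in germ cells. *Fzd6* and *Lrp5* also passed 20 CPM in endothelial cells. *Lrp6* and *Ryk* passed it in all 5 classes, *Ptk7* in germ, myoid and stromal cells, and *Ror2*, a Wnt5a receptor, in stroma (48.2 and 47.1 CPM) and myoid cells (26.4 and 29.3 CPM), with *Ror1* in myoid cells alone.

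Of the inhibitors, *Sfrp2* passed 20 CPM in germ cells (47.0 and 34.0 CPM), *Sostdc1* in stroma, *Nkd1* in myoid cells and stroma, and *Znrf3* in Sertoli cells. *Apc*, *Gsk3a*, *Gsk3b* and *Csnk1a1* of the destruction complex passed it in all 5 classes, and *Axin1*, *Btrc* and *Dvl2* in the 4 larger classes. Of the nuclear factors, *Tcf7* was at 63.4 and 85.7 CPM in germ cells and also passed 20 CPM in Sertoli and endothelial cells. *Tcf7l2* passed it in the 4 somatic classes and *Tcf7l1* in myoid, stromal and endothelial cells. *Bcl9l* and *Tle1* passed it in all 5 classes, *Bcl9*, *Tle3*, *Pygo1* and *Pygo2* in fewer. The targets *Ccnd1* (germ and endothelial cells) and *Myc* (myoid cells and stroma) were also among them.

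Of these 78 genes, 4 of 25 with enough UMIs were called in germ cells of the stated set, against 10.4% of all genes (*Btrc* higher, at 26.7 and 40.6 CPM, and *Znrf3*, *Nkd1* and *Tcf7l1* lower, at 21 and 13.7, 22.0 and 13.7, and 15.2 and 7.20 CPM). In Sertoli cells 2 of 40 were called, against 1.79% of all genes, *Fzd1*, a Frizzled receptor, at 4.61 and 7.13 CPM, and *Sp5*. None were called of 41 in myoid cells (2.09% of all genes), 48 in stroma (1.51%) and 3 in endothelial cells (8.27%). The medians of their log2 ratios were -0.10 in germ, 0.10 in Sertoli, 0.02 in myoid, -0.00 in stromal and 0.10 in endothelial cells.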

How the data were processed

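Testis cells of 2 control and 2 *Cnot3*-cKO samples were grouped by the labelled genotype. The deposited values are raw counts of UMIs for every gene in every barcode, which the authors obtained with Cell Ranger 3.0.1 on mm10 with the Ensembl 93 annotation, per the file headers and labels. The 2 samples of a genotype (runs named for different sequencers) are merged in 1 matrix. The 10 members and all gene lists were chosen with earlier results of these data known.

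Cell calling used an order-of-magnitude rule (3000 expected cells) and filtered as the methods state. Scrublet called 486 and 459 cells doublets, which were kept in. Counts were normalised to 10000 per cell and clustered with scanpy 1.11.5 (2500 variable genes without members and Wnt list, 30 components, 15 neighbours, Leiden resolution 0.5). Clusters were named from marker lists. Summed UMIs of each class were scaled to 1000000 UMIs of that class in the library (CPM), with exact Poisson intervals, ratios had exact conditional (binomial) intervals and shares exact Clopper-Pearson intervals, at 95% (scipy 1.17.1). A count of 0 was read as allowing 3 counts. Free RNA was estimated from barcodes of at most 100 UMIs. A gene was called at 1.5-fold with at least 100 UMIs. Named were all members, list genes at 20 CPM in a class of both libraries or called, and the 3 genes most like each member. The calculation was tested on simulated Poisson counts. These held no variation between cells, samples or libraries, so the test covers counting error only. Gene positions came from GENCODE M21 (99.8% of identifiers matched without version). Alternatives were other cell filters, resolutions, thresholds, thinning depths and handling of doublets and free RNA.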

Additional observations from a re-analysis of the deposited data

Results flagged for a closer look

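These results were marked because intervals lay above 0 in one class and below 0 in another, comparing log2 ratios of *Cnot3*-cKO over control. With 1 library per genotype each difference was not tested. *Wnt5a* was higher in Sertoli cells and lower in stroma, a gap of 0.43, and higher in myoid cells and lower in stroma, a gap of 0.25. *Ctnnb1* was higher in Sertoli cells than in control and lower in myoid cells (gap 0.25) and stroma (gap 0.24), and higher in endothelial cells and lower in myoid cells (gap 0.46) and stroma (gap 0.45). *Wnt6* was higher in germ cells and lower in Sertoli cells, a gap of 1.75, and the germ cell side rests on 62 and 41 UMIs.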

How the results depend on the processing

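No paired analysis was possible because the matrices hold no map from barcodes to samples, and for the same reason leaving out a sample could not be run. The count of called members in germ cells, 1 of 3 as reported, was 3 of 9 in the wider set, 0 of 2 at resolution 0.3, 2 of 3 with a limit of 25% difference in place of 1.5-fold, 3 of 9 at a minimum of 20 UMIs, and 4 of 9 in the wider set without the clusters led by somatic genes, an alternative chosen after seeing the data. In Sertoli cells, 1 of 7 as reported, it was 0 at a fold of 2 and 2 at the 25% limit. In endothelial cells, 0 of 1, it was 1 of 1 at the 25% limit and 1 of 3 at 20 UMIs. The other 57 of 66 counts stayed within 1.5 times. Of 258 member ratios 3 moved beyond their interval and none turned from a called direction: *Wnt6* in germ cells was 0.35 in the wider set and 5.43 with free RNA subtracted, and *Wnt6* in myoid cells was -0.32 at resolution 1. The *Rspo1* and *Axin2* ratios in germ cells, with under 100 UMIs in the stated set, were not among these 258. Of 235 levels 46, and of 40 shares 29, moved beyond their interval. The causes were not tested. Most members had under 100 UMIs in germ and endothelial cells of the stated set, which limits what could be seen there.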
